A study of Mus musculus with 40 samples.

Results

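Messenger RNA levels of 10 prostaglandin genes were followed across 10 short hairpin RNAs in 4T1 cells, a mouse mammary carcinoma line. The 10 genes were taken by symbol from the 23480 rows listed in each of the 2 tables: the phospholipase gene Pla2g4a, the cyclooxygenase genes Ptgs1 and Ptgs2, the prostaglandin E synthase genes Ptges, Ptges2 and Ptges3, the transporter gene Slco2a1, the breakdown genes Hpgd and Ptgr1, and the receptor gene Ptger4. Every symbol was listed in both tables. In each table, 8 of the 10 lay above the minimum level for testing. Ptger4 was below it, and Hpgd was listed with 0 reads.

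Prostaglandin E2 is made in steps. Cytosolic phospholipase A2, encoded by Pla2g4a, releases arachidonic acid from membranes, a cyclooxygenase turns it into prostaglandin H2, and a prostaglandin E synthase turns that into prostaglandin E2. Ptgs1 encodes the cyclooxygenase that many tissues make constantly, and Ptgs2 encodes the inducible one, a gene long studied in mammary tumours. The transporter encoded by Slco2a1 takes prostaglandins up, the dehydrogenase encoded by Hpgd starts their breakdown, the reductase encoded by Ptgr1 carries it further, and Ptger4 encodes the EP4 receptor for prostaglandin E2.

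The series asked how far hairpins of the TRC collection and hairpins chosen by the shERWOOD algorithm change genes other than their target. A short hairpin RNA is processed into a small RNA that lowers mRNAs pairing with it. Hairpin 66708 (TRC, puromycin at 1 µg/ml) was set against the shERWOOD hairpins Slpi1U1, Slpi1U2, Slpi2 and Slpi4 (hygromycin at 500 µg/ml) in the Slpi table, and hairpin 88943 (TRC, puromycin at 1 µg/ml) against Mgp1, Mgp1U1, Mgp1U3 and Mgp2 (hygromycin at 500 µg/ml) in the Mgp table. Infection was at an MOI, the infectious particles per cell, of 0.3, with selection over 10 days on average. The TRC or shERWOOD source was inferred from hairpin name and drug, so source, vector and drug cannot be told apart, and no untransduced line was among the libraries.

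Each hairpin had 2 libraries, n = 2, and separate cultures are not stated in the labels. The p-values therefore rest on the spread between libraries of a hairpin, possibly a technical one, and not on that among hairpins. Libraries held 12.2 to 28.5 M reads for the Slpi table and 12.1 to 23.3 M for the Mgp table. Slpi, the target in the first table, averaged 151 CPM (a gene's reads relative to the total of its library) in 66708 and 53.3 CPM in its shERWOOD lines. Mgp, the target in the other table, averaged 15.8 CPM in 88943 and 3.57 CPM in its shERWOOD lines. The gene not targeted differed as well. In scaled reads, defined below, Slpi was 3.01-fold and Mgp 5.41-fold higher in 66708 than in its shERWOOD lines. In the Mgp table, Mgp was 4.02-fold higher and Slpi 3.91-fold lower in 88943. Slpi averaged no fewer CPM in 66708 than in 88943. These levels are therefore not a check of knockdown of the target, which was not tested. The summed level of 5 epithelial markers, all of them detected, was 2207 to 2246 CPM in 66708 libraries and 1920 to 2055 CPM in Slpi-directed shERWOOD libraries, and 2491 to 2501 CPM in 88943 libraries and 1500 to 1679 CPM in Mgp-directed shERWOOD libraries. Krt7 went against the sum in 66708, at 182 and 184 CPM against 258 to 308 CPM, while the other 4 were higher. All 5 were higher in 88943. Of 6 leukocyte markers, Cd68 was the highest at up to 8.17 CPM, and Emr1 had no read in the Mgp table; the sum was 3.89 to 4.37 CPM in 66708 and 5.79 to 9.39 CPM in its shERWOOD libraries, and 7.65 to 8.32 CPM in 88943 and 4.42 to 5.84 CPM in its shERWOOD libraries. Of 6 fibroblast markers Pdgfra carried nearly all the signal, with sums of 42.0 to 42.1 CPM in 66708, 40.1 to 53.5 CPM in its shERWOOD libraries, 55.4 to 58.1 CPM in 88943 and 25.1 to 34.5 CPM in its shERWOOD libraries. The 4 endothelial markers summed to 1.45 CPM at most, with Kdr at 0 in the Mgp table. The part of these marker differences in the results was not tested.

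Pla2g4a, Ptgs2 and Slco2a1 are the members that moved the same way in both TRC lines and without overlap of libraries on the deposited scale, so their promoters are shown: the 300 bases from 250 before to 50 after the RefSeq transcript start (GRCm38.p6), 5′ to 3′ on the gene's strand. Capitals mark matches to the motifs searched on both strands. The Ptgs2 window is chr1:150099781-150100080 on the plus strand, the Pla2g4a window chr1:149961241-149961540 on the minus strand, and the Slco2a1 window chr9:103008237-103008536 on the plus strand.
Ptgs2 promoter: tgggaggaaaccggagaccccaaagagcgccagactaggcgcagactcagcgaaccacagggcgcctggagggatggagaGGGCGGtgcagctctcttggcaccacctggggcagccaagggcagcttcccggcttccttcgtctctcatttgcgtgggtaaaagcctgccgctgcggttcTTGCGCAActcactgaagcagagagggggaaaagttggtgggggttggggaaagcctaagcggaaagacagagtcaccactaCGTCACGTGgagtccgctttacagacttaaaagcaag
Pla2g4a promoter: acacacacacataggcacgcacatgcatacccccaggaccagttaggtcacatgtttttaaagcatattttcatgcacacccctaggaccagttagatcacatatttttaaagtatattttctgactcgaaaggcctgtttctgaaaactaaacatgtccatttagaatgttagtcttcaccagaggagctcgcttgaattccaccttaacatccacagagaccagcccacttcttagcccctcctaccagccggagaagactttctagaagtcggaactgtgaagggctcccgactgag
Slco2a1 promoter: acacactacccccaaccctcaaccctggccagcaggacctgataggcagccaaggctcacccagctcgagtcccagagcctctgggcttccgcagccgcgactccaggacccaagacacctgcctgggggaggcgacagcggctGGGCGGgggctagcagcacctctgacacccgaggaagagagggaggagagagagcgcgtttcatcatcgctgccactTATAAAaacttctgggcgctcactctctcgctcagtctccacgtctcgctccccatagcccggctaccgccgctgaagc

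Positions are counted from the transcript start as +1. The Ptgs2 window holds the C/EBP palindrome TTGCGCAA, whose first base is at -69, a motif found in 0.183% of 32851 RefSeq promoter windows of this length. It also holds the E-box CACGTG at 17, found in 7.15% of windows, and, overlapping that E-box, the cyclic AMP response core TGACG read on the minus strand at 14, found in 20.8%. A GC box, GGGCGG, begins at -170, and 35.7% of windows hold one. The Slco2a1 window holds the TATA box TATAAA at -29, found in 13.6% of windows, and a GC box at -106. The NF-kappaB-type motif GGAANTCCC (1.68% of windows) and the AP-1 motif TGANTCA (7.81% of windows) have no match in these 3 windows, and the Pla2g4a window shown has no match to any of the 7 motifs; that says only that these letters are not in the windows. RefSeq has another Pla2g4a start, whose window (chr1:149922390-149922689, minus strand) is not shown and holds a TATA box match at -200. Pla2g4a (ENSMUSG00000056220, minus strand, 149829618 to 149961290) and Ptgs2 (ENSMUSG00000032487, plus strand, 150100031 to 150108227) are neighbours on chromosome 1 of GRCm38, 139 kb apart and pointing away from each other.

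Levels between genes were compared per kb of annotated exon. On that measure Ptgs2 was the highest member in every library. It had 112 and 120 CPM per kb in 66708 and 137 to 197 CPM per kb in the Slpi-directed shERWOOD libraries. In 88943 it had 82.6 and 81.3 CPM per kb, and in the Mgp-directed shERWOOD libraries 209 to 343 CPM per kb. Ptges3, which also encodes the HSP90 co-chaperone p23, came next, at 71.9 to 108 CPM per kb over all 20 libraries. Slco2a1 followed at 46.8 to 68.6 CPM per kb. The place of Slco2a1 below Ptgs2 depends on the merged exon length used, 13.5 kb for Slco2a1 and 4.58 kb for Ptgs2. In CPM, without that division, Slco2a1 averaged more than Ptgs2 in 66708 (853 against 533), 88943 (927 against 375) and Slpi4 (747 against 646). In the other shERWOOD lines Ptgs2 was the higher in CPM. Pla2g4a, Ptgr1 and Ptgs1 lay between 5.64 and 22.6 CPM per kb. Ptges, the inducible membrane-bound synthase, lay between 5.62 and 9.89 CPM per kb, and Ptges2 between 1.22 and 2.23 CPM per kb. The receptor gene Ptger4 had 15 to 56 reads per library, or 0.17 to 0.391 CPM per kb. Ptges3 has a processed pseudogene in the annotation, and how reads shared between the copies were counted is not given, so its level is uncertain.

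**Figure D1:**
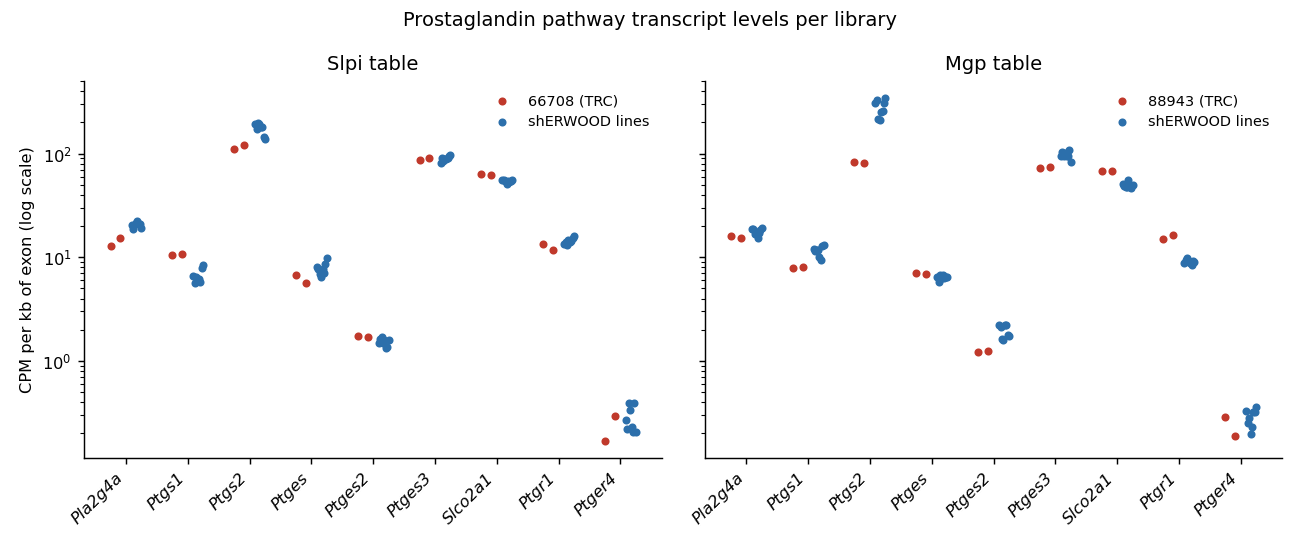
Level of each member in every library, in CPM per kb of exon on a log axis, by table; each point is 1 library, red for the TRC hairpin and blue for the shERWOOD hairpins, and Hpgd, at 0 reads, is not drawn. Per kb of merged exon, Ptgs2 is the highest member in every library, and Ptger4, at 0.391 CPM per kb or less, the lowest of those drawn.

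Hpgd, the 15-hydroxyprostaglandin dehydrogenase gene (ENSMUSG00000031613), had 0 reads in all 20 libraries, among 352 M counted reads. A count of 0 allows up to 0.105 CPM in the deepest library and 0.248 CPM in the shallowest, counting error only. The count depends on how the gene was annotated and counted: Rpl30, a ribosomal protein gene that dividing cells use, had only 203 reads over the whole Slpi table and 257 over the other. Hpgd is therefore given as listed at 0, with no statement on its expression.

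Within a table, values are scaled reads, which are the recovered reads of a gene divided by the size factor of the library. Tests were limma's moderated tests on the deposited variance-stabilized values over 9489 genes (Slpi table) and 9174 genes (Mgp table), with Benjamini-Hochberg adjustment over all of them; an adjusted p under 0.05 counts as a call. Log2 differences are on that deposited scale, where a change from 100 to 200 scaled reads is 0.36 (Slpi table) or 0.34 (Mgp table); they understate the change of weakly expressed genes. These are bulk libraries, in which fewer cells making a transcript and less transcript per cell cannot be told apart.

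The mRNA of Pla2g4a, a gene of the first step of the pathway, was lower in both TRC lines. Pla2g4a had 1434 and 1699 scaled reads in the 66708 libraries, against a range of 1984 to 2369 (median 2165) in the 8 Slpi-directed shERWOOD libraries. Both 66708 libraries lay below all 8, and the mean was 1.38-fold lower (log2 difference -0.37 ± 0.05 SE, limma adjusted p = 1.472e-05). In the other table Pla2g4a had 1660 and 1607 scaled reads in 88943, against 1774 to 2230 (median 2042) in the Mgp-directed shERWOOD libraries. The groups did not overlap here either, though the lowest shERWOOD library, of Mgp2, was close, and the mean was 1.24-fold lower in 88943 (log2 difference -0.25 ± 0.03 SE, limma adjusted p = 9.073e-06). Relative to library totals the gap closed: 88943 had 102 and 98.9 CPM and the lowest Mgp-directed library 99.0 CPM.

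Ptgs2 was lower in both TRC lines. It had 8994 and 9585 scaled reads in 66708, against 10373 to 14582 (median 13680) in the Slpi-directed shERWOOD libraries. The 66708 libraries lay below all 8, and the mean was 1.41-fold lower (log2 difference -0.47 ± 0.04 SE, limma adjusted p = 4.660e-07), which placed Ptgs2 at rank 89 from the lowest difference among the 9489 genes tested. In 88943 it had 6178 and 6051 scaled reads, against 17111 to 28361 (median 23172) in the Mgp-directed shERWOOD libraries. The 88943 libraries were far below every other library of the table, and the mean was 3.73-fold lower (log2 difference -1.79 ± 0.04 SE, limma adjusted p = 1.170e-14), at rank 2 of 9174. Both ranks are on the deposited scale, which understates the change of weakly expressed genes and so favours abundant ones such as Ptgs2.

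Ptgs1, by contrast, was higher in one TRC line and lower in the other. It had 713 and 724 scaled reads in 66708, against 359 to 546 (median 396) in the Slpi-directed shERWOOD libraries. All 8 shERWOOD libraries lay below 66708, and the mean was 1.7-fold higher in 66708 (log2 difference 0.47 ± 0.04 SE, limma adjusted p = 1.696e-07). In 88943 it had 505 and 510 scaled reads, against 647 to 915 (median 819) in the Mgp-directed shERWOOD libraries. Here the TRC line was the lower one, without overlap and 1.58-fold (log2 difference -0.39 ± 0.03 SE, limma adjusted p = 2.639e-08). The difference between the 2 comparisons was not tested, because the tables were normalized separately. The Ptgs1 exons (ENSMUSG00000047250, chromosome 2, 36230426 to 36252272) share 3.81% of their bases with Gm43621 on the other strand, and the strand setting of the counting is not given.

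**Figure D2:**
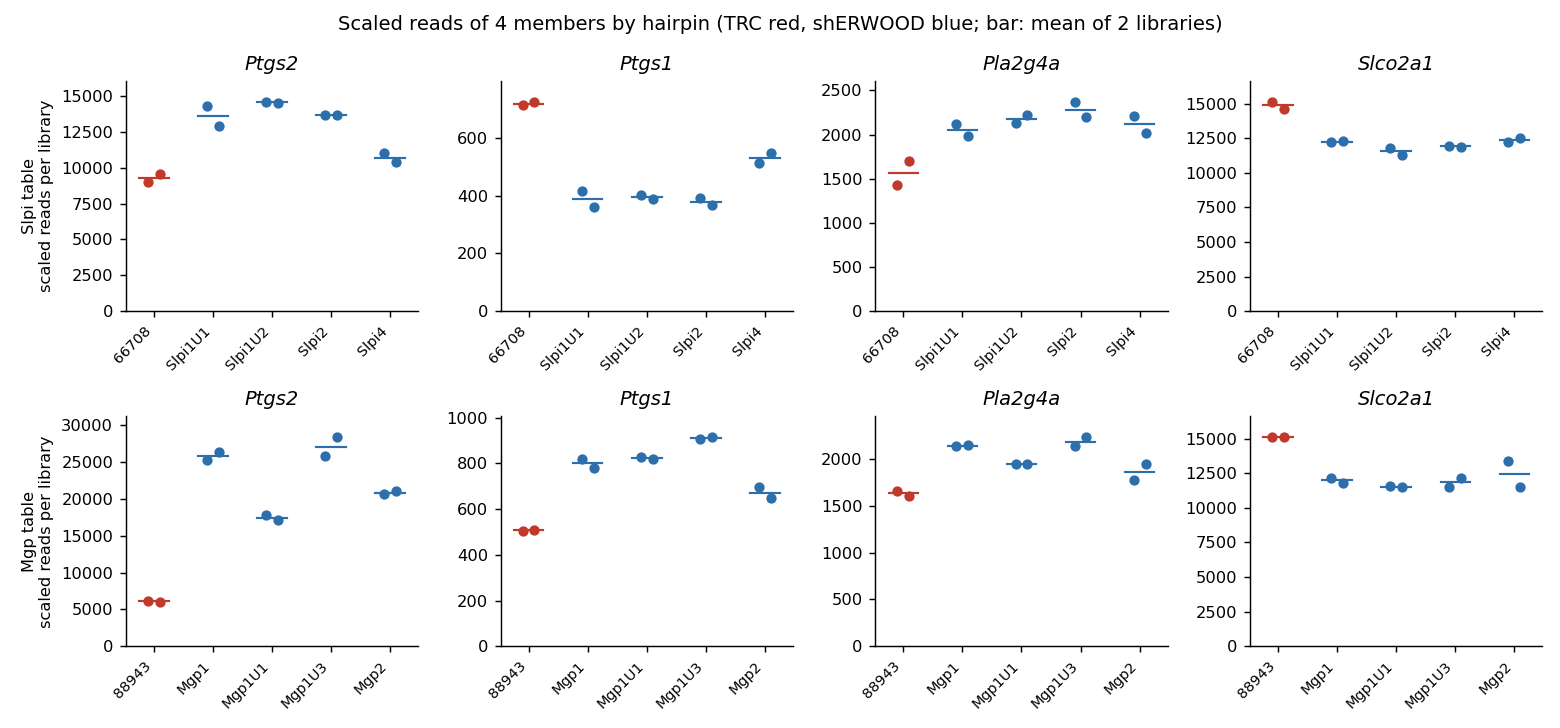
Scaled reads per library (linear axis from 0) of Ptgs2, Ptgs1, Pla2g4a and Slco2a1 for the 5 hairpins of each table; each point is 1 library, each bar the mean of 2, the TRC hairpin is red and the shERWOOD hairpins blue. Ptgs2 and Pla2g4a are lower and Slco2a1 higher in both TRC lines, while Ptgs1 is higher in 66708 (718 on average) and lower in 88943 (507 on average), each against its own shERWOOD lines.

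The terminal synthases did not move together. Ptges had 459 and 384 scaled reads in 66708 and 418 to 644 (median 497) in its shERWOOD libraries, and 450 and 443 in 88943 against 399 to 478 (median 451). In both tables the libraries overlapped. The first comparison passed the test (log2 difference -0.14 ± 0.04 SE, limma adjusted p = 0.012), but not without the 66708 library of 384 scaled reads (-0.07, limma adjusted p = 0.291), and the other did not pass (-0.01 ± 0.04 SE, limma adjusted p = 0.904). Ptges2, whose product is a membrane-associated synthase, had 153 and 150 scaled reads in 66708 against 112 to 138 (median 127), and 101 and 103 in 88943 against 143 to 200 (median 175). It was above all shERWOOD libraries in 66708, close to the minimum level of 121 scaled reads, and below all of them in 88943. Both 88943 libraries lay under that table's minimum of 139 scaled reads, so Ptges2 passed it only through its shERWOOD lines. The difference was 0.10 ± 0.04 SE in 66708 (limma adjusted p = 0.0402). It was -0.25 ± 0.03 SE in 88943 (limma adjusted p = 1.541e-06, and 1.586e-05 in the fit without the minimum), where the mean was 1.72-fold lower. The 66708 call was lost under several other settings, among them the fit without either 66708 library (limma adjusted p = 0.184 and 0.131).

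Ptges3 had 3385 and 3508 scaled reads in 66708, against 2927 to 3585 (median 3253) in its shERWOOD libraries. The groups overlapped and the difference of 0.07 ± 0.04 SE did not pass (limma adjusted p = 0.151). In 88943 it had 2603 and 2708 scaled reads, against 3346 to 4352 (median 3782). All Mgp-directed shERWOOD libraries were above 88943, which was 1.45-fold lower (log2 difference -0.46 ± 0.06 SE, limma adjusted p = 3.469e-06).

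The transporter gene Slco2a1 was higher in both TRC lines. It had 15125 and 14636 scaled reads in 66708, against 11303 to 12545 (median 12076) in the Slpi-directed shERWOOD libraries, and the mean was 1.24-fold higher in 66708 (log2 difference 0.30 ± 0.04 SE, limma adjusted p = 6.919e-06). It had 15099 and 15104 in 88943, against 11487 to 13371 (median 11681) in the Mgp-directed ones, and the mean was 1.26-fold higher in 88943 (log2 difference 0.33 ± 0.05 SE, limma adjusted p = 8.525e-06). Neither pair of TRC libraries overlapped with the shERWOOD libraries, and the highest of these was 1 of the 2 Mgp2 libraries.

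Ptgr1, the reductase gene of the breakdown route, had 535 and 471 scaled reads in 66708 and 481 to 610 (median 537) in its shERWOOD libraries. The groups overlapped, and the difference of -0.06 ± 0.04 SE did not pass (limma adjusted p = 0.243). In 88943 it had 560 and 614 scaled reads, against 345 to 408 (median 374). Both 88943 libraries were above all 8 shERWOOD libraries, and the mean was 1.57-fold higher (log2 difference 0.36 ± 0.03 SE, limma adjusted p = 1.974e-07). The receptor gene Ptger4 had 19.8 and 34.1 scaled reads in 66708 against 22.9 to 43.2 (median 27.0), and 31.3 and 20.2 in 88943 against 23.3 to 43.3 (median 35.7). At this depth no difference was detectable in the fit over all genes with any spread (-0.03 ± 0.05 SE, limma adjusted p = 0.681, in 66708; -0.07 ± 0.04 SE, limma adjusted p = 0.197, in 88943). Its exons overlap Ttc33 and Gm15937 on the other strand, and the larger of these overlaps covers 15.3% of its exon bases.

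**Figure D3:**
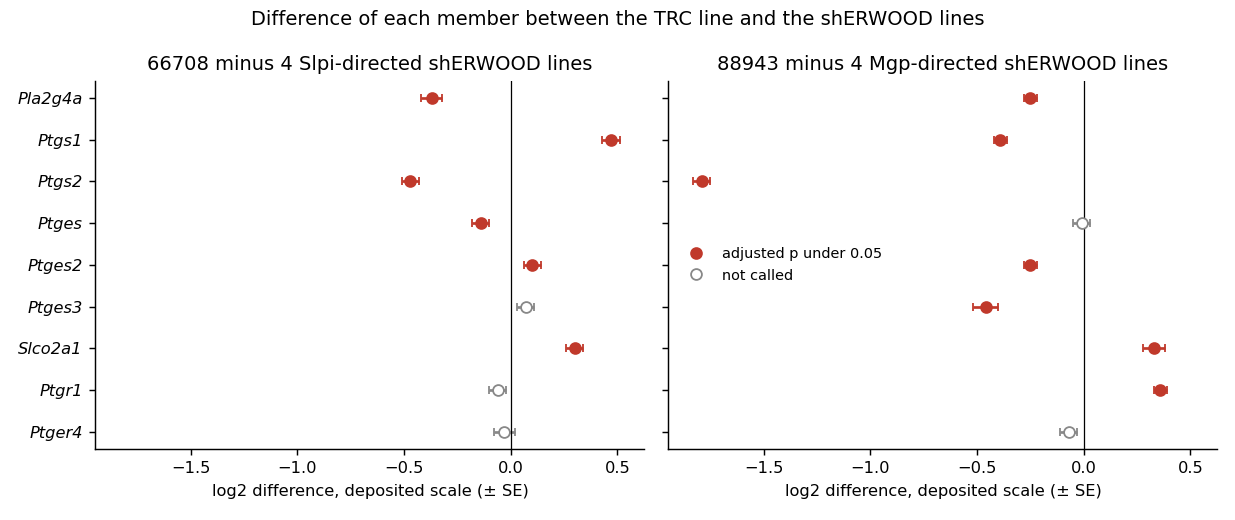
Log2 difference of each member on the deposited scale, TRC line minus the mean of its 4 shERWOOD lines, with its standard error; filled points had a limma adjusted p under 0.05, and Ptger4 comes from the fit over all genes with any spread. Ptgs2 in 88943, at -1.79, lies far from the other members, and Pla2g4a, Ptgs2 and Slco2a1 have the same sign in both panels.

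Differences between a TRC line and the shERWOOD lines were common among all genes, and the member counts have to be read against that. In 66708, 6 of the 8 members above the minimum level were called (75.0%), 3 higher and 3 lower, where 55.7% of the 9489 genes were called either way, 32.1% higher and 23.6% lower. The median log2 difference of those 8 members was 0.01, and that of all genes 0.02. In 88943, 7 of 8 were called (87.5%), 2 higher and 5 lower, where 70.7% of the 9174 genes were called, 28.7% higher and 42% lower. Of the 5 lower ones, Ptges2 passed the minimum level only through its shERWOOD lines. The median of those 8 members was -0.25 and that of all genes -0.04. With 8 genes these shares are near the background, and the counts are not a result about the pathway. Libraries of the TRC line and the shERWOOD lines did not overlap for 5 of the 8 with 66708, where 48.6% of all genes tested were without overlap, and for 7 of the 8 with 88943, where 60.4% were. Nothing about the pathway is read from these counts either.

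Members also differed among shERWOOD lines aimed at the same gene. Among the Slpi-directed lines limma's F-test called 3 of 8 members, where 7.55% of all genes were called: Ptgs2 (adjusted p = 6.272e-04), Ptgs1 (adjusted p = 0.00566) and Ptges (adjusted p = 0.0194). All 7 pairwise member calls, of 48 made, involved Slpi4. The Slpi4 libraries also stood apart as libraries. They held reads for 17792 and 17793 genes, against 15831 to 16701 in the other Slpi-directed libraries. Their depth was 20.4 and 19.5 M reads, against 12.2 to 17.8 M. The part of this in the Slpi4 calls was not tested. Ptgs2 averaged 13607, 14553 and 13680 scaled reads in Slpi1U1, Slpi1U2 and Slpi2 and 10705 in Slpi4. Slpi4 was the lowest of the 4 for Ptgs2, by 0.33 from Slpi1U1 (limma adjusted p = 0.00382), 0.43 from Slpi1U2 (limma adjusted p = 4.482e-04) and 0.34 from Slpi2 (limma adjusted p = 0.00186) on the log2 scale. Ptgs1 went the other way, at 388, 395 and 379 scaled reads in those 3 lines and 530 in Slpi4, with limma adjusted p-values of 0.0102, 0.0085 and 0.00446 for the 3 pairs. Ptges averaged 427 scaled reads in Slpi1U2 and 605 in Slpi4 (log2 difference -0.29 ± 0.06 SE, limma adjusted p = 0.00596). Of all genes, 2.4% were called between Slpi1U1 and Slpi4, 6.48% between Slpi1U2 and Slpi4, and 4.18% between Slpi2 and Slpi4; the shares were 0.79% for Slpi1U1 against Slpi1U2, 4.66% for Slpi1U1 against Slpi2 and 1.64% for Slpi1U2 against Slpi2. Without the Slpi4 library in column 2, the F-test called 1 of the 8 members.

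Among the Mgp-directed lines limma's F-test called 4 of 8 members, where 29.4% of all genes were called: Ptgs2 (adjusted p = 2.432e-06), Ptgs1 (adjusted p = 0.00158), Ptges2 (adjusted p = 0.0125) and Pla2g4a (adjusted p = 0.0129). Ptgs2 averaged 17436 ± 460 scaled reads in Mgp1U1, 20844 ± 363 in Mgp2, 25825 ± 823 in Mgp1 and 27094 ± 1792 in Mgp1U3 (SD, n = 2 each). It differed in 5 of the 6 pairs, all but Mgp1 against Mgp1U3, and the largest log2 difference was -0.62 ± 0.05 SE, Mgp1U1 minus Mgp1U3 (limma adjusted p = 1.952e-06). Ptgs1 was lower in Mgp2, at 673 scaled reads, than in Mgp1 (800), Mgp1U1 (824) and Mgp1U3 (911), with limma adjusted p-values of 0.0231, 0.0116 and 4.795e-04. Over all members 13 of 48 pairs were called. Among all genes the called share was 8.26% for Mgp1 against Mgp1U1, 7.24% for Mgp1 against Mgp1U3, 12% for Mgp1 against Mgp2, 7.66% for Mgp1U1 against Mgp1U3, 7.68% for Mgp1U1 against Mgp2 and 25.1% for Mgp1U3 against Mgp2.

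Across the tables, levels are CPM of each library's total and were not tested. From the lowest to the highest, Ptgs2 averaged 375 CPM in 88943, 533 in 66708, 646 in Slpi4, 830 in Slpi2, 836 in Slpi1U1, 897 in Slpi1U2, 972 in Mgp1U1, 1170 in Mgp2, 1458 in Mgp1 and 1497 in Mgp1U3. Both TRC lines stood at the low end of the order, and every Mgp-directed shERWOOD line was above every Slpi-directed one. The neighbours Slpi2, Slpi1U1 and Slpi1U2, and the neighbours Mgp1 and Mgp1U3, gave no call between them in their tables (limma adjusted p = 0.488 to 0.943 for the first 3, and 0.464 for the last pair). The shERWOOD lines averaged 802 ± 109 CPM when aimed at Slpi and 1274 ± 249 CPM when aimed at Mgp (SD over 4 hairpins), so 88943 is set against a higher level than 66708 is.

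The balance of the cyclooxygenase transcripts can be read within a library, free of library scaling. Per kb of exon, Ptgs2 exceeded Ptgs1 10.7- and 11.2-fold in 66708, against 16.1- to 31.8-fold (median 30.2) in the Slpi-directed shERWOOD libraries. It exceeded Ptgs1 10.4- and 10.1-fold in 88943, against 17.7- to 28.7-fold (median 25.6) in the Mgp-directed ones. Both TRC lines lay below every shERWOOD library of their table, and the lowest shERWOOD values were those of Slpi4 (18.2- and 16.1-fold) and Mgp1U1. Although Ptgs1 differed from its shERWOOD lines in opposite directions in the 2 TRC lines, the ratio was lower in both. Ptgs2 exceeded Slco2a1 1.76- and 1.94-fold per kb in 66708, against 2.45- to 3.8-fold in its shERWOOD libraries, and 1.21- and 1.18-fold in 88943, against 4.41- to 6.89-fold.

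**Figure D4:**
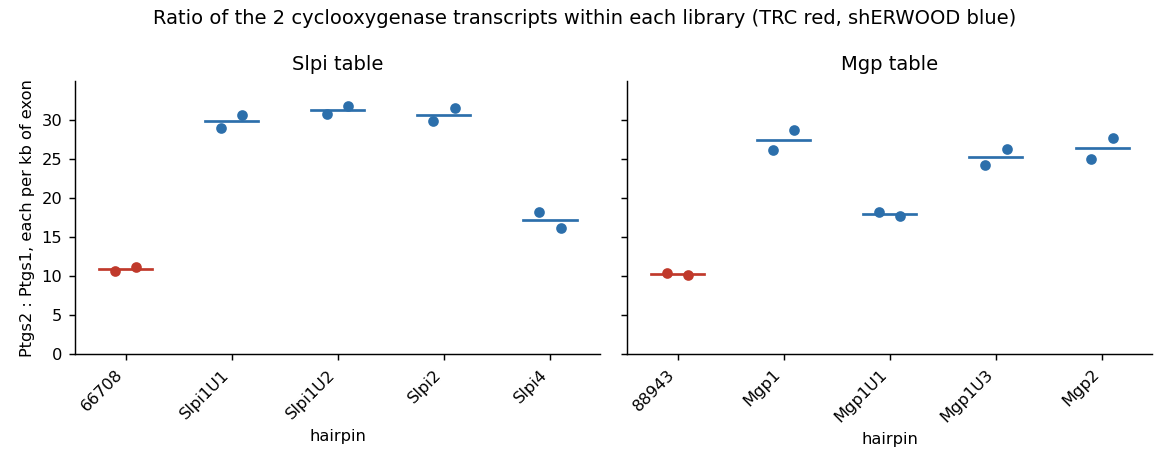
Ratio of Ptgs2 to Ptgs1, each in CPM per kb of exon, in every library of the 10 hairpins (linear axis from 0; points are libraries, bars the mean of 2, TRC red, shERWOOD blue). The 4 TRC libraries lie between 10.1 and 11.2, below all shERWOOD libraries, of which Slpi4 and Mgp1U1 are the lowest.

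Correlations over the 10 libraries of a table describe how members varied together; the points share hairpins and the TRC contrast. Ptgs2 and Pla2g4a had a Pearson r of 0.79 for the Slpi table and 0.90 for the Mgp table, and 0.33 and 0.79 over the 8 shERWOOD libraries alone. Ptgs2 and Slco2a1 had r of -0.88 and -0.85 over 10 libraries, and -0.72 and 0.14 over the 8. Ptgs2 and Ptgs1 had r of -0.93 and 0.88 over 10 libraries, and -0.84 and 0.37 over the 8. The genes most like Ptgs2 among 9144, ranked by the lower of the correlations in the 2 tables, were Sorbs2 (r of 0.96 and 0.98), Oxsr1 (0.96 and 0.95), Myo5a (0.93 and 0.94), Tigit (0.95 and 0.92) and Mcph1 (0.92 and 0.96). Sorbs2, which encodes a cytoskeletal adaptor protein, averaged 26.3 CPM in 66708 and 56.3 CPM in its shERWOOD lines, and 23.1 CPM in 88943 and 68.3 CPM in its shERWOOD lines. Tigit, an immune receptor gene named for T cells, averaged 48.0 CPM in 66708 and 72.3 CPM in its shERWOOD lines, and 52.3 CPM in 88943 and 75.7 CPM in its shERWOOD lines.

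Other genes of the pathway were mostly too low to test, and their called counts stand beside 55.7% of all genes called in 66708 and 70.7% in 88943. Of 9 further prostanoid enzymes and transporters, 3 passed the minimum. In 66708, 2 were higher, Cbr1 (log2 difference 0.13 ± 0.04 SE, limma adjusted p = 0.00653) and Ptgr2 (0.12 ± 0.04 SE, limma adjusted p = 0.0102), which encode a carbonyl reductase and a prostaglandin reductase. In 88943, 1 was lower, Abcc4, which encodes an exporter of prostaglandins (-0.29 ± 0.04 SE, limma adjusted p = 5.528e-06). Of 8 other prostanoid receptors only Ptger1, the EP1 receptor gene, passed the minimum, and it was higher in both TRC lines (0.28 ± 0.04 SE, limma adjusted p = 2.168e-05, in 66708; 0.08 ± 0.03 SE, limma adjusted p = 0.0307, in 88943).

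Of 10 other genes, listed as phospholipases or, for Plaa, as a phospholipase A2 activator, 4 passed. In 66708, where 23.6% of all genes were lower, 2 of these were lower, Pla2g6 (-0.35 ± 0.04 SE, limma adjusted p = 1.197e-06) and Pla2g12a (-0.28 ± 0.03 SE, limma adjusted p = 8.953e-06). In 88943, where 42% of all genes were lower and 28.7% higher, 3 were lower and 1 higher, with the largest difference in Plaa, which encodes phospholipase A2-activating protein (-0.49 ± 0.04 SE, limma adjusted p = 5.417e-08), and the higher one Pnpla8 (0.17 ± 0.04 SE, limma adjusted p = 0.00117). Of 10 lipoxygenase-branch genes only Lta4h, the leukotriene A4 hydrolase gene, passed, at -0.13 ± 0.04 SE in 66708 (limma adjusted p = 0.0115) and 0.05 ± 0.03 SE in 88943 (limma adjusted p = 0.231).

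Of 15 genes known to act on Ptgs2 transcription or on its mRNA, 13 passed. In 66708, 3 were higher, 1 lower and 9 not called, with a median of 0.06, where 55.7% of all genes were called and their median was 0.02. Zfp36l1, which encodes an AU-rich element binding protein that speeds mRNA decay, was higher (0.45 ± 0.04 SE, limma adjusted p = 2.072e-07), and the transcription factor gene Egr1 was lower (-0.35 ± 0.04 SE, limma adjusted p = 1.155e-05). In 88943, 3 were higher, 7 lower and 3 not called, with a median of -0.18, where 70.7% of all genes were called and 42% were lower, with a median of -0.04; the called share of the list is near that background. The lower ones were led by the RNA-binding protein genes Celf2 (-0.44 ± 0.03 SE, limma adjusted p = 9.251e-09) and Elavl1, which encodes the mRNA-stabilizing protein HuR (-0.39 ± 0.03 SE, limma adjusted p = 2.747e-08). Zfp36l1 was lower here (-0.38 ± 0.05 SE, limma adjusted p = 3.240e-06), and Tia1, a translational repressor gene, was higher (0.38 ± 0.04 SE, limma adjusted p = 7.426e-07).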

How the data were processed

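RNA-seq libraries of 4T1 lines were taken from 2 tables. The authors deposited variance-stabilized values on a log2-like scale, and the submitters' processing notes name mm10, Bowtie2, HTSeq and DESeq; versions, strand setting and annotation were not given in the sources used here. The labels list 40 samples, 4 per hairpin, and the tables hold 20 columns, 2 per hairpin, each used as 1 replicate of its hairpin.

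The stabilization was inverted in closed form from each table's smallest value (7.92 and 8.12). Every value gave whole reads within 0.001, hence library totals, CPM and scaled reads. Levels per kb used merged GENCODE exons on GRCm38, and promoters came from RefSeq (GRCm38.p6).

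Tests used limma 3.58.1 in R 4.3.3 with an intensity trend, with 1 mean per hairpin, the 5 of a table fitted together. They were two-sided and adjusted by Benjamini-Hochberg over genes with a mean 1 unit or more above the table's smallest value (121 scaled reads in the Slpi table, 139 in the Mgp table). The contrast was the TRC hairpin minus the mean of 4 shERWOOD hairpins. All members were named, with up to 3 called genes of the largest difference per other list. Members and lists were chosen with earlier results of these data known. Alternatives were the filter, voom on recovered reads, other normalizations, hairpin means as samples, a replicate block and leaving out each library.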

Additional observations from a re-analysis of the deposited data

Results flagged for a closer look

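Slco2a1 in the Mgp table had 1 shERWOOD library apart from the other 7: an Mgp2 library had a deposited value of 13.77 and the next highest 13.64, a gap of 0.61 of the range of the 8 libraries, against a critical share of 0.526. This was 1 of 18 groups of 8 libraries examined, and chance alone gives about 1 in 20. Both 88943 libraries were above it.

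Ptgs1 had log2 differences of opposite sign in the 2 TRC lines, 0.47 in 66708 and -0.39 in 88943, a gap of 0.86, with all TRC libraries outside the range of their shERWOOD libraries. Ptges2 also had opposite signs, 0.10 in 66708 and -0.25 in 88943, a gap of 0.35. Neither gap was tested, since the tables were normalized separately, and hairpin, target and table change together.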

How the results depend on the processing

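Of 281 log2 differences of members recomputed under other settings, 259 kept their direction and their side of the threshold, 13 (Ptges and Ptges2 in 66708) lost the call, 2 gained one and 7 turned in sign. With a filter of 2 units the number of members called in 66708 was 3, against 6, and among the Slpi-directed lines 1, against 3, where fewer members are tested. Leaving out 1 library in turn gave 4 to 7 members called in 66708, 7 in 88943, 1 to 4 among the Slpi-directed lines (1 without the Slpi4 library in column 2) and 3 to 5 among the Mgp-directed lines. Ptges in 88943, not called, turned to 0.04 with equal library medians and 0.12 with voom on library totals, and ranged from -0.02 to 0.01 without 1 library. Ptges3 in 66708, not called, turned to -0.01 with voom on library totals. The call of Ptges in 66708 was lost with hairpin means as samples (limma adjusted p = 0.243), and that of Ptges2 in 66708 without the filter (0.0787), with equal medians (0.124), hairpin means (0.112), the replicate block (0.0502) and voom on library totals (0.136), all limma adjusted p-values. Ptgr1 in 66708 was called with voom on library totals (-0.21, limma adjusted p = 0.0133), a setting chosen after seeing the data, and Ptges3 in 66708 without 1 Slpi1U1 library (limma adjusted p = 0.0457). The cause was not tested. Voom on library totals put the median of all genes at -0.05 in 66708 and 0.07 in 88943, against 0.03 and -0.06 by voom with the deposited scaling.

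Genes called numbered 3042 in 66708 with hairpin means as samples, against 5285, and 4151 in 88943, against 6490. Whether column numbers pair the libraries could not be settled. Deviations of same-numbered libraries from their hairpin means were correlated between hairpins. These correlations ran from -0.53 to 0.55 in the Slpi table and from -0.17 to 0.28 in the Mgp table. The numbers are not tied to samples, so the check cannot tell unpaired libraries from paired ones numbered differently. With the replicate block 5 members were called in 66708 and 7 in 88943, 3 among the Slpi-directed and 4 among the Mgp-directed lines, and 5199 and 6595 genes in all. With 2 libraries per hairpin and 1 TRC hairpin per table, differences belong to these hairpins and not to a collection; Ptger4 and Ptges2 are limited by depth.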
